A study of Mus musculus with 15 samples.

Results

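Integrins are the cell surface receptors through which cells hold on to the matrix around them, and laminins are the trimeric proteins that form the core of the basement membrane. The genes for these subunits were followed while mouse iPSC (induced pluripotent stem cells) were turned towards smooth muscle in culture, and in smooth muscle taken from the aorta. Members were all probe sets whose Entrez Gene ID has a mouse symbol of the integrin alpha, integrin beta or laminin chain series. There were 37 of them among 25206 probe sets, 18 integrin alpha subunits, 8 integrin beta subunits and 11 laminin chains, each measured by 1 probe set.

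The 15 samples fell into 5 groups of 3. All cultured samples came from an iPSC reporter line with Acta2hrGFP, in which green fluorescent protein (GFP) reports that Acta2, which encodes smooth muscle actin, is active. The groups were undifferentiated iPSC at day 0, mesodermal progenitors sorted at day 5 for Kdr (the VEGF receptor also called Flk-1), the GFP- and the GFP+ fraction of day 13, and primary GFP+ smooth muscle cells of mouse aorta, sorted on the same reporter. No genotype, strain, sex or age of animal was given in the sources used here beyond the reporter. The samples are described as biological triplicates with nothing said on how separate the cultures or animals were, so p-values measure the spread between these samples.

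Every integrin is a pair of 1 alpha and 1 beta chain, and the alpha chain largely sets which ligand is bound. Collagen is bound by the alpha chains Itga1, Itga2, Itga10 and Itga11, laminin by Itga3, Itga6 and Itga7, and the arginine-glycine-aspartate motif of fibronectin and similar proteins by Itga5, Itga8, Itgav and Itga2b. Each laminin joins 1 alpha, 1 beta and 1 gamma chain, and the alpha chain carries the main site for cell receptors. Contractile smooth muscle of the vessel wall is surrounded by basement membrane and is known for Itga1, Itga7 and Itga8.

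The sort genes behaved as follows. Kdr stood at 3.24 at day 0 and 9.64 at day 5 on the log2 scale of the deposited values, although no Kdr- group was there to check that sort. Acta2, the reporter's own gene, was 10.67 in the day 13 GFP- and 11.32 in the GFP+ group (limma adjusted p = 0.151). This difference did not pass in the fit over all samples, although the groups did not overlap. The GFP+ samples numbered 3, 5 and 6 read 11.23, 11.47 and 11.27, each above every GFP- sample. Myh11, the smooth muscle myosin heavy chain, was 4.64 in day 13 GFP+ cells and 11.03 in aortic cells. The median of all probe sets lay between 4.08 and 4.29 in each sample. The samples hold no calls of presence, so levels under that median are not shown to lie above background. A fold with 1 side under that median is the ratio of the deposited values, and its true size is not settled, since the low side may be background. Both day 13 samples numbered 3 lay apart from those numbered 5 and 6 on the fourth principal component, at 51.5 and 24.3 against -10.78 to -23.89, and results are given with and without them where they matter.

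The subunits that changed between day 5 and day 13 mostly rose, and those that changed elsewhere went both ways. In day 13 GFP+ cells 23 of the 37 genes rose against day 5 and 1 fell (limma, adjusted p under 0.05 over all probe sets), where 31.2% of all probe sets passed, 14.3% by rising and 16.9% by falling. Their median log2 change was 1.01, against -0.004 over all probe sets. In day 13 GFP- cells 18 rose and 1 fell, with a background of 26% (12% rose, 13.9% fell) and a median of 0.48. From day 0 to day 5, 7 rose and 11 fell (background 28.8%, with 14.9% rising and 13.9% falling). Between the day 13 sorts 6 were higher and 2 lower in GFP+ cells (background 4.53%, with 2.02% higher and 2.52% lower). The aortic cells differed from day 13 GFP+ cells in 24 genes, 14 higher and 10 lower (background 37.2%, with 17.7% higher and 19.5% lower). Without both day 13 samples numbered 3 these counts were 23 in GFP+ and 21 in GFP- cells against day 5 (backgrounds 32.1% and 28.3%), 7 between the sorts (3.71%) and 26 for the aorta (37.5%). Groups did not overlap in 28 of the 37 genes between day 5 and GFP+ cells (45.3% of all probe sets) and in 26 between day 5 and GFP- cells (39.6%). They did not overlap in 22 from day 0 to day 5 (46%), in 17 between the sorts (19.5%) and in 25 for the aorta (44.9%). Both day 13 groups were compared with the same day 5 samples, and the day 13 GFP+ samples also serve the aortic comparison. These are bulk samples, in which fewer cells of a type and less RNA per cell cannot be told apart.

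**Figure D1:**
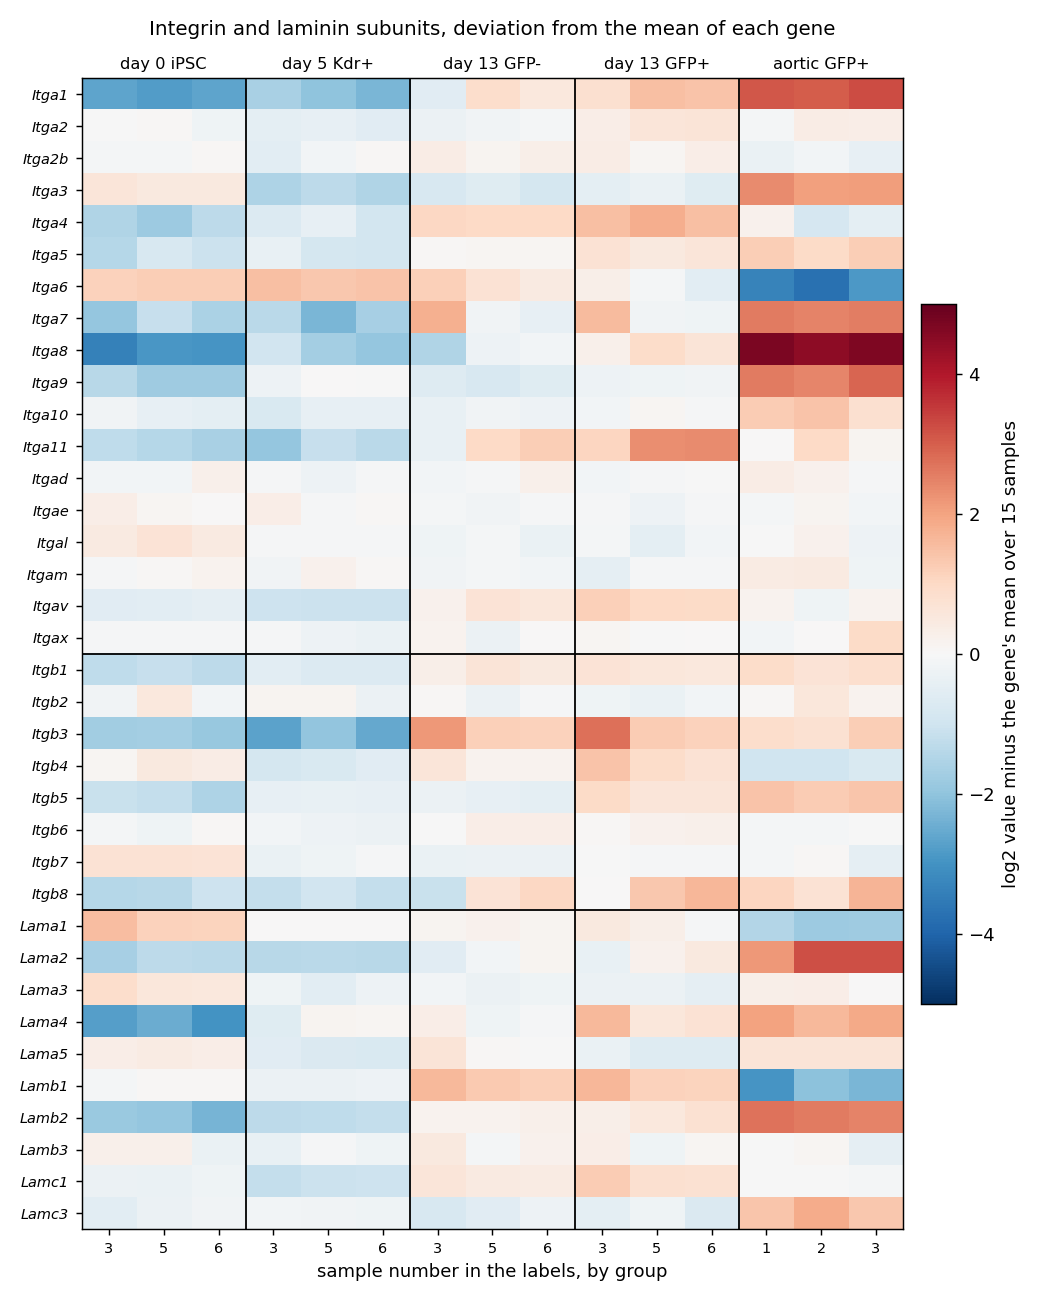
Log2 value of 36 of the subunits (rows: integrin alpha, integrin beta, laminin) in each of the 15 samples (columns, by group and sample number) after subtraction of the mean of that gene over all samples; red is above and blue below that mean. Itga8, Itga1 and Lamb2 deepen in red towards the aorta, whereas Itga6, Lamb1 and Lama1 turn blue there, and 8 genes such as Itgad and Lamb3 stay pale and were below the array median in every group.

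Of the 37 genes, 19 had their highest group mean in the aorta, 8 in day 13 GFP+ cells, 4 in day 13 GFP- cells, 1 at day 5 and 5 at day 0. These ranks of means include neighbours that do not differ beyond their spread. The 8 genes below the array median in every group were the leukocyte chains Itgad, Itgae, Itgal, Itgam, Itgax and Itgb2, the epithelial Itgb6 and the epidermal laminin chain Lamb3.

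The start regions of 4 genes are shown because these genes carry the ends of the pattern: Itga8 and Itga1 had the widest range of group means, Lamb1 fell most in the aorta, and Lama2 is an aortic gene with a CArG box, the motif of serum response factor. RefSeq windows (GRCm38.p6) were at hand for 23 of the 37 genes, in 26 windows, and the 250 bases before the annotated start are printed 5′ to 3′ on the strand of the gene. Capitals mark matches, on either strand, to a CArG box or to the GC box GGGCGG. The Itga8 window is chr2:12301945-12302194 (minus strand), that of Itga1 is chr13:115101965-115102214 (minus strand), that of Lama2 is chr10:27616943-27617192 (minus strand) and that of Lamb1 is chr12:31265043-31265292 (plus strand).
Itga8: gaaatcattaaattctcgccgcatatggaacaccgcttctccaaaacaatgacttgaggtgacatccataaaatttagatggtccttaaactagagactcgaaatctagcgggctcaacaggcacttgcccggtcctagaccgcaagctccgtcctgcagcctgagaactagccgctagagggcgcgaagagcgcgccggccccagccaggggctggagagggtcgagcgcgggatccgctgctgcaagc
Itga1: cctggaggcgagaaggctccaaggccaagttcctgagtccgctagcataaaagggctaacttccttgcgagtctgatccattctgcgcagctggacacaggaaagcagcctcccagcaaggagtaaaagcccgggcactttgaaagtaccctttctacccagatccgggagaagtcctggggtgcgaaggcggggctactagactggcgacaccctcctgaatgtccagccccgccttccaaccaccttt
Lama2: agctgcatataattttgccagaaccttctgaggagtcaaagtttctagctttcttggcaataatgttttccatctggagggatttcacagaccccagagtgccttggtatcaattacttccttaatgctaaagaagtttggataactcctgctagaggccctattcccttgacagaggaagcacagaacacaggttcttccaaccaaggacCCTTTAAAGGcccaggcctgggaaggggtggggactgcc
Lamb1: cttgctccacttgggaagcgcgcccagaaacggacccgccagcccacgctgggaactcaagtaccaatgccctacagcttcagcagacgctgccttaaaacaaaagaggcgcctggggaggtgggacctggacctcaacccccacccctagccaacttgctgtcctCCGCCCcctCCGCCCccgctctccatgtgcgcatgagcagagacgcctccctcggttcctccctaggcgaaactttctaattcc
The CArG box of Lama2 begins 39 bases before the start, and the matches of Lamb1 begin 84 and 75 bases before it. A CArG box was present in 2 of the 26 windows of the subunits (Lama2 and Itgb6) and in 1.47% of all 32851 windows of the same length. GGGCGG was in 9 of the 26 windows and 32.7% of all, and GGAATG, the TEAD motif, in 3 of 26 and 12.6% of all. TATAAA and CACGTG were in 0 of the 26 windows, and in 12.4% and 6.02% of all windows. None of these 5 motifs, which do not overlap in the windows shown, was found in the printed windows of Itga8 and Itga1. A match is a match of letters and not a shown binding site.

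Among the alpha chains the collagen receptors Itga11 and Itga1 rose most from day 5 to day 13 GFP+ cells. Itga1 (Entrez Gene 109700) read 3.28, 3.12 and 3.26 at day 0 and 4.31, 3.89 and 3.62 at day 5 in the samples numbered 3, 5 and 6. It then read 5.36, 6.81 and 6.43 in GFP-, 6.73, 7.44 and 7.35 in GFP+, and 9.02, 8.93 and 9.17 in the 3 aortic samples. The day 13 groups and the aorta lay wholly above day 5, and the aorta wholly above day 13. Itga1 rose 9.39-fold from day 5 to GFP+ cells (log2 change 3.23, SE 0.29, limma adjusted p = 3.19e-07) and a further 3.65-fold to the aorta (1.87, adjusted p = 8.75e-05). Its difference between day 0 and day 5 of 0.72 did not pass (adjusted p = 0.0794).

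Itga11 (Entrez Gene 319480), a receptor for fibrillar collagen known from fibroblasts, peaked in culture instead. It read 3.50, 4.27 and 4.07 at day 5, 5.03, 6.43 and 6.65 in GFP-, 6.51, 7.73 and 7.78 in GFP+ and 5.43, 6.42 and 5.54 in the aorta. Every aortic sample was below every GFP+ sample, and the sample numbered 3 was the lowest of both day 13 sorts. It rose 10.5-fold from day 5 to GFP+ cells (log2 change 3.39, SE 0.406, limma adjusted p = 6.64e-06), rose 4.26-fold to GFP- cells (adjusted p = 0.000966) and was 2.91-fold lower in the aorta than in GFP+ cells (adjusted p = 0.00694). Itga2 and Itga10 are the remaining collagen receptors. Itga2 read 3.83, 3.90 and 3.66 at day 0, 3.37, 3.45 and 3.29 at day 5, 3.58, 3.69 and 3.78 in GFP-, 4.19, 4.45 and 4.49 in GFP+ and 3.78, 4.24 and 4.2 in the aorta. Itga2 fell by 0.43 from day 0 to day 5 (adjusted p = 0.0285) and rose by 1.01 from day 5 to GFP+ cells (adjusted p = 2.77e-05). The first of these calls ended without day 0 sample 3 or 5 or day 5 sample 3 or 6 (adjusted p 0.0704 to 0.106). Itga10 read 3.46, 3.22 and 3.15 at day 0, 2.87, 3.21 and 3.23 at day 5 and 3.26, 3.47 and 3.37 in GFP- cells. It was highest in the aorta, at 4.92, 5.06 and 4.41 against 3.50, 3.75 and 3.56 in GFP+ cells (2.29-fold, adjusted p = 2.62e-05). Its smaller rise from day 5 to GFP+ cells (0.50, adjusted p = 0.0286) was lost without day 5 sample 3 (0.145), GFP+ sample 5 (0.114) or GFP+ sample 6 (0.0572).

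**Figure D2:**
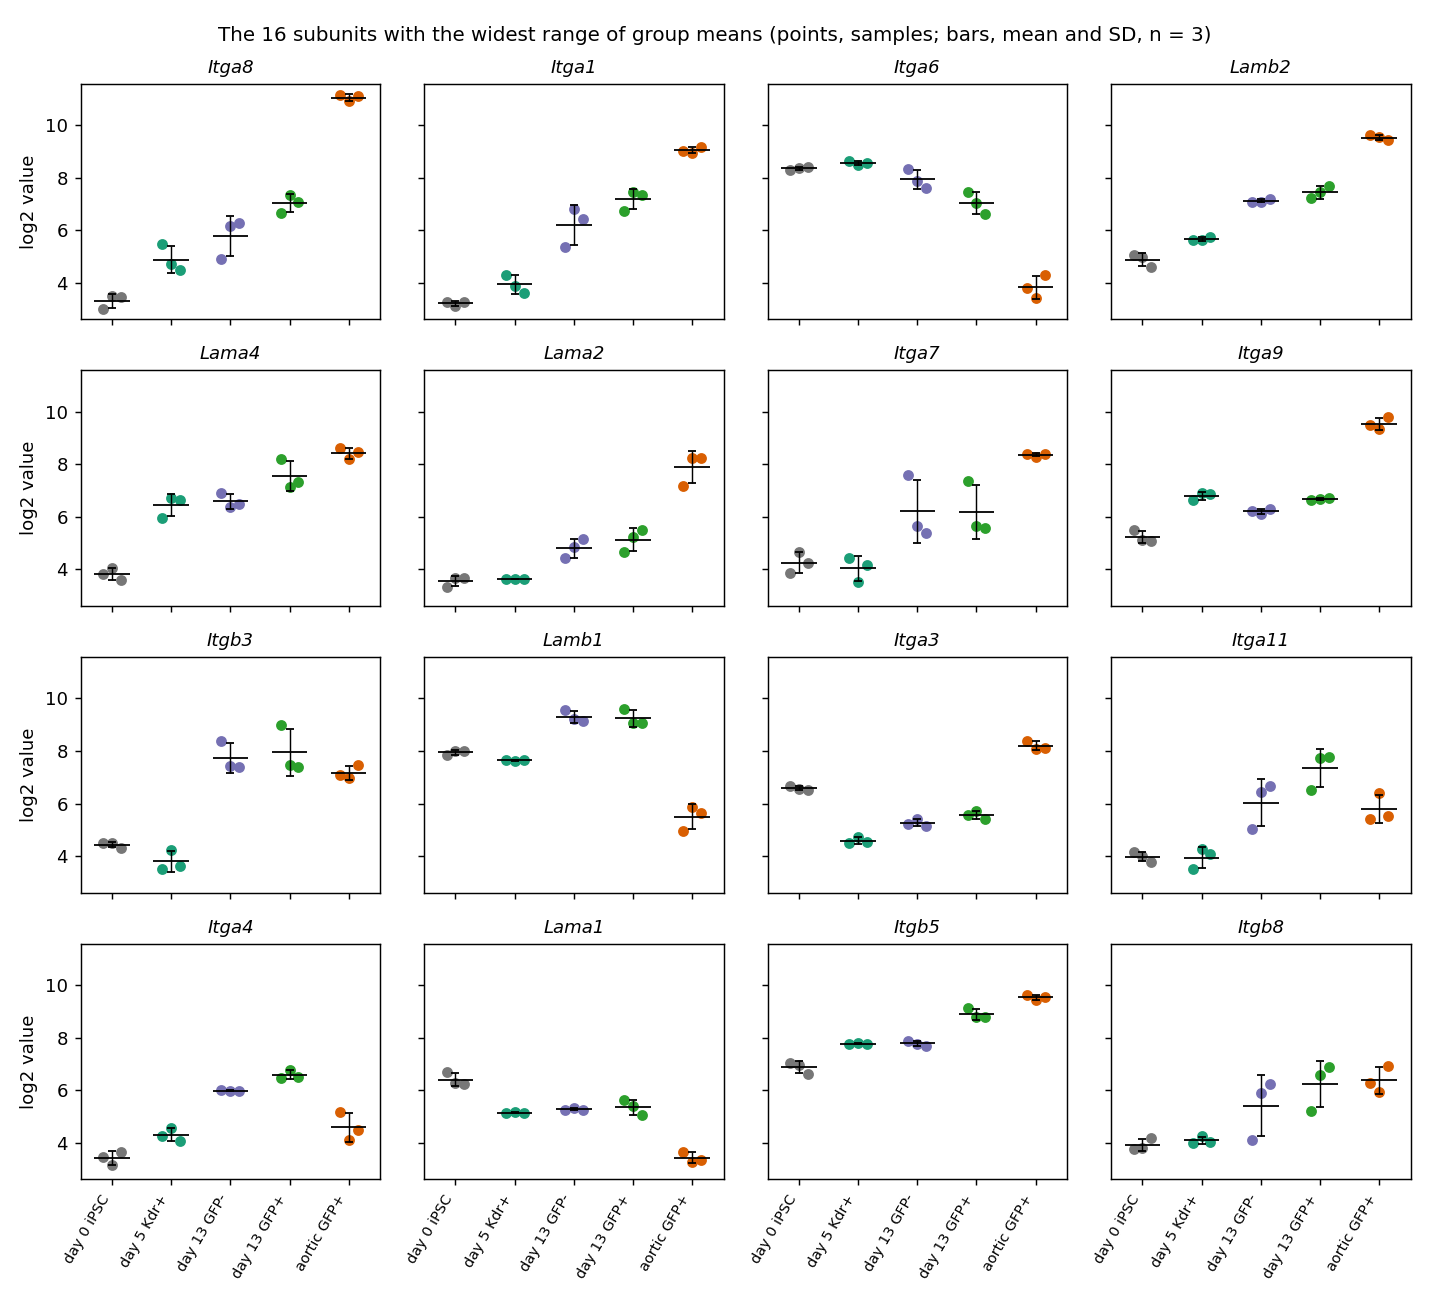
Log2 value (vertical axis, shared) of the 16 subunits with the widest range of group means in the 5 groups (horizontal axis); points are samples, bars the mean and SD of 3 samples. Itga8 climbs from a mean of 3.33 at day 0 to 11.03 in the aorta, Itga6 and Lamb1 drop in the aorta, and Itga7 and Itgb8 each show 1 day 13 sample apart from the others of its group.

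Of the laminin receptors, Itga6 was lowest and Itga3 and Itga7 were highest in the aorta. Itga6 (Entrez Gene 16403), the laminin receptor of stem cells and epithelia, read 8.29, 8.36 and 8.39 at day 0 and 8.64, 8.48 and 8.56 at day 5. It read 8.33, 7.87 and 7.61 in GFP-, 7.45, 7.05 and 6.62 in GFP+, and 3.80, 3.41 and 4.29 in the aorta. The GFP+ samples were all below the day 0, day 5 and GFP- samples, and the aortic samples were below all others. It fell 2.87-fold from day 5 to GFP+ cells (log2 change -1.52, SE 0.231, limma adjusted p = 7.2e-05) and was 9.22-fold lower in the aorta than in GFP+ cells (-3.21, adjusted p = 2.14e-08), with an aortic mean of 3.83 that lay under the array median. Among the 24 genes called between day 5 and GFP+ cells it was the one that fell. In GFP- cells the difference from day 5 was -0.62 (adjusted p = 0.0611), which passed without GFP- sample 3 (-0.82, adjusted p = 0.0171).

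Itga3 (Entrez Gene 16400) and Itga7 (Entrez Gene 16404), the other laminin-binding alpha chains, were highest in the aorta. Itga3 read 6.66, 6.54 and 6.52 at day 0 and 4.50, 4.74 and 4.55 at day 5, a 3.94-fold fall (log2 change -1.98, SE 0.128, limma adjusted p = 1.04e-08). It regained little in culture, with 5.22, 5.42 and 5.16 in GFP- and 5.56, 5.72 and 5.41 in GFP+ cells, and stood at 8.38, 8.07 and 8.11 in the aorta. The aortic level was 6.16-fold above GFP+ cells (2.62, SE 0.128, adjusted p = 2.58e-10). Itga7, the laminin receptor of skeletal, cardiac and smooth muscle, read 4.44, 3.53 and 4.15 at day 5, 7.58, 5.65 and 5.39 in GFP- and 7.38, 5.63 and 5.58 in GFP+ cells. The sample numbered 3 was the highest of both sorts, by 2.07 and 1.77 above the mean of the other two. In the aorta Itga7 read 8.40, 8.28 and 8.38, above every day 13 sample. It rose 4.45-fold from day 5 to GFP+ cells (SE 0.511 on the log2 scale, adjusted p = 0.0035) and 4.46-fold from GFP+ cells to the aorta (2.16, adjusted p = 0.00329), and the sorts differed by -0.01 (95% interval -1.10 to 1.08). The size of these changes depended on the sample numbered 3. Without it in the sort concerned, the rise of Itga7 from day 5 was 1.48 to GFP- cells (adjusted p = 0.0167) and 1.56 to GFP+ cells (adjusted p = 0.0193), and the step from GFP+ cells to the aorta was 2.75 (adjusted p = 0.000293). Itgb4 (Entrez Gene 192897) pairs with Itga6 at the epithelial hemidesmosome. Itgb4 read 5.20, 5.58 and 5.46 at day 0, 4.21, 4.33 and 4.52 at day 5, 5.72, 5.27 and 5.27 in GFP-, 6.52, 6.02 and 5.84 in GFP+ and 4.12, 4.12 and 4.36 in the aorta. It fell by 1.06 from day 0 to day 5, rose by 1.78 from day 5 to GFP+ cells (adjusted p = 1.17e-06) and was 3.81-fold lower in the aorta (adjusted p = 4.14e-07), so both Itga6 and Itgb4 fell in the aorta while they went opposite ways from day 5 to GFP+ cells.

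Of the arginine-glycine-aspartate receptors, Itga8 had the widest range of group means among all 37 genes. Itga8 (Entrez Gene 241226), which binds nephronectin and fibronectin and is known from vascular smooth muscle, read 3.02, 3.48 and 3.47 at day 0 and 5.46, 4.71 and 4.49 at day 5. It read 4.90, 6.14 and 6.27 in GFP-, 6.67, 7.34 and 7.06 in GFP+ and 11.12, 10.89 and 11.09 in the aorta. The day 5, GFP+ and aortic groups each lay wholly above the group before in that order, and GFP- overlapped day 5 through its sample 3. The gene rose 2.95-fold from day 0 to day 5 (limma adjusted p = 0.00119), 4.4-fold from day 5 to GFP+ cells (adjusted p = 5.47e-05) and 16.1-fold from GFP+ cells to the aorta (log2 change 4.01, SE 0.315, adjusted p = 5.78e-08). From day 5 to GFP- cells the change was 0.89 (adjusted p = 0.0504), and 1.32 without GFP- sample 3 (adjusted p = 0.00104) or 1.17 without day 5 sample 3 (adjusted p = 0.0163). Its promoter window, printed above, held none of the motifs searched.

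Itgav (Entrez Gene 16410), the shared alpha chain of the fibronectin and vitronectin receptors, followed a course with its peak at day 13. It read 7.96, 7.97 and 8.07 at day 0, 7.47, 7.45 and 7.42 at day 5, 8.72, 9.20 and 9.07 in GFP-, 9.72, 9.49 and 9.46 in GFP+ and 8.70, 8.31 and 8.70 in the aorta. It fell by 0.55 to day 5, rose 4.32-fold to GFP+ cells (2.11, SE 0.144, adjusted p = 1.66e-08) and was 1.98-fold lower in the aorta (adjusted p = 4.54e-05, limma). Itga5 (Entrez Gene 16402), the fibronectin receptor, rose 2.53-fold from day 5 to GFP+ cells (1.34, adjusted p = 1.09e-05) and 1.76-fold to GFP- cells (adjusted p = 0.00159). Itga5 itself read 5.96, 6.57 and 6.31 at day 0, 7.0, 6.48 and 6.45 at day 5, 7.42, 7.48 and 7.48 in GFP-, 8.10, 7.87 and 7.98 in GFP+ and 8.60, 8.33 and 8.59 in the aorta. Its further difference of 0.52 in the aorta (adjusted p = 0.0228) did not pass without GFP+ sample 5 or 6 or aortic sample 1 or 3 (adjusted p 0.055 to 0.0833). Itga2b, the platelet chain, lay between 3.53 and 4.45 in all samples. Itga2b values were 3.96, 3.95 and 4.13 at day 0, 3.53, 3.90 and 4.13 at day 5, 4.45, 4.21 and 4.36 in GFP-, 4.42, 4.17 and 4.39 in GFP+ and 3.72, 3.92 and 3.66 in the aorta. Its day 13 rises of 0.48 in GFP- and 0.47 in GFP+ cells (adjusted p = 0.0231 and 0.0214) ended without day 5 sample 3 (0.142 and 0.137), without the sample numbered 3 of the sort itself (0.0716 and 0.0746), or without its sample numbered 6 (0.0667 and 0.0715). Both also ended after median centring (0.0616 and 0.0633). Of 10 megakaryocyte and platelet markers 1 rose from day 5 to GFP+ cells, where 14.3% of all probe sets rose. Pf4, a platelet chemokine, stood at 2.33 in GFP- and 2.47 in GFP+ cells.

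Itga4 and Itga9, close relatives that bind VCAM-1, osteopontin and tenascin among others, took different courses. Itga4 (Entrez Gene 16401) read 3.45, 3.15 and 3.67 at day 0, 4.27, 4.56 and 4.07 at day 5, 6.00, 5.95 and 5.99 in GFP-, 6.48, 6.78 and 6.49 in GFP+ and 5.17, 4.12 and 4.47 in the aorta. It rose 4.87-fold from day 5 to GFP+ cells (log2 change 2.28, SE 0.218, limma adjusted p = 6.31e-07) and was 4-fold lower in the aorta (adjusted p = 2.36e-06), where it overlapped day 5. Itga9 (Entrez Gene 104099) read 5.52, 5.12 and 5.10 at day 0, 6.62, 6.90 and 6.89 at day 5, 6.24, 6.09 and 6.28 in GFP-, 6.62, 6.69 and 6.73 in GFP+ and 9.49, 9.33 and 9.79 in the aorta. It rose 2.94-fold to day 5 (adjusted p = 5.95e-07), fell 1.51-fold to GFP- cells (adjusted p = 0.00552) and was 7.23-fold higher in the aorta than in GFP+ cells (2.85, SE 0.146, adjusted p = 4.26e-10). Among the 19 genes called between day 5 and GFP- cells Itga9 was the one that fell. Between day 5 and GFP+ cells its difference was -0.12 (95% interval -0.43 to 0.19).

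Among the beta chains, Itgb3 (Entrez Gene 16416) changed most. This partner of Itgav in the vitronectin receptor read 4.48, 4.51 and 4.32 at day 0, 3.52, 4.25 and 3.64 at day 5, 8.37, 7.42 and 7.37 in GFP-, 8.97, 7.47 and 7.37 in GFP+ and 7.08, 6.97 and 7.46 in the aorta. Every day 13 and aortic sample was above every earlier one. It rose 17.6-fold from day 5 to GFP+ cells (log2 change 4.14, SE 0.358, limma adjusted p = 2.15e-07) and 15.1-fold to GFP- cells (3.91, adjusted p = 7.59e-07), from a day 5 mean of 3.80 under the array median. The aorta differed from GFP+ cells by -0.77 (adjusted p = 0.106, and 0.0458 without GFP+ sample 6). The size of that difference depended on GFP+ sample 3, which lay 1.55 above the mean of samples 5 and 6. Those samples, at 7.47 and 7.37, lay close to the aortic values. Itgb1 (Entrez Gene 16412), the common partner of most alpha chains named here, rose by 0.60 to day 5 and again by 1.12 to GFP- and 1.23 to GFP+ cells (adjusted p = 3.62e-06 and 8.1e-07). It differed by 0.21 between aortic and GFP+ cells (adjusted p = 0.182), a difference that became 0.74 and passed after cyclic loess scaling of the arrays (adjusted p = 7e-05).

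Itgb5 (Entrez Gene 16419), a second partner of Itgav, was 2.14-fold higher in the GFP+ than in the GFP- sort of day 13 (adjusted p = 0.000151). It read 7.04, 6.96 and 6.63 at day 0, 7.76, 7.78 and 7.77 at day 5, 7.88, 7.77 and 7.70 in GFP-, 9.12, 8.77 and 8.77 in GFP+ and 9.60, 9.43 and 9.56 in the aorta. From day 5 the difference was 0.01 in GFP- cells (95% interval -0.27 to 0.30) and 1.11 in GFP+ cells (limma adjusted p = 6e-06). Itgb8 (Entrez Gene 320910), whose pair with Itgav activates latent TGF-beta, read 4.09, 5.90 and 6.24 in GFP- and 5.22, 6.56 and 6.87 in GFP+ cells, with sample 3 lowest in both, after 4.01, 4.26 and 4.02 at day 5. It rose 4.35-fold to GFP+ cells (adjusted p = 0.00211). In GFP- cells the change of 1.32 did not pass (adjusted p = 0.0519), and without GFP- sample 3 it was 1.97 (adjusted p = 0.000967). Itgb7, a lymphocyte chain, fell by 0.91 from day 0 to day 5 (adjusted p = 3.97e-05) and lay between 3.54 and 4.03 in every later sample. Itgb6 stayed between 2.20 and 2.81. Itgb6 values were 2.41, 2.28 and 2.57 at day 0, 2.34, 2.26 and 2.20 at day 5, 2.46, 2.81 and 2.81 in GFP-, 2.57, 2.73 and 2.73 in GFP+ and 2.40, 2.40 and 2.46 in the aorta. Its day 13 rises of 0.43 and 0.41 (adjusted p = 0.016 and 0.0169) were lost without day 5 sample 6 or without sample 5 or 6 of either sort (adjusted p 0.0608 to 0.0785), and after median centring (0.0565 and 0.067).

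The leukocyte integrins stayed low. Itgal fell from 4.04, 4.28 and 4.03 at day 0 to 3.53 in each day 5 sample (limma adjusted p = 0.00496). Itgad, Itgae, Itgam, Itgax and their partner Itgb2 passed in 0 of the 5 comparisons by limma. At an unadjusted p under 0.05 the aortic comparison held Itgam (0.40, adjusted p = 0.0788, and 0.61 with adjusted p = 0.00509 without aortic sample 3) and Itgb2 (0.49, adjusted p = 0.0567, and 0.59 with 0.04 without aortic sample 1). Itgam read 2.95, 3.04 and 3.16 at day 0, 2.82, 3.19 and 3.04 at day 5, 2.83, 2.89 and 2.86 in GFP-, 2.55, 2.94 and 2.95 in GFP+ and 3.39, 3.46 and 2.79 in the aorta. Itgb2 read 3.63, 4.34 and 3.68 at day 0, 3.95, 3.96 and 3.54 at day 5, 3.87, 3.54 and 3.77 in GFP-, 3.6, 3.51 and 3.70 in GFP+ and 3.89, 4.38 and 4.01 in the aorta. In the same comparison 9 of 11 measured leukocyte markers rose, where 17.7% of all probe sets rose. The mean of the list was between 4.49 and 4.84 in the aortic and between 3.71 and 3.83 in the GFP+ samples. Ptprc, the common leukocyte antigen, read 3.56 in the aorta and 1.84 in GFP+ cells, both under the array median. The part of the leukocyte markers in the results was not tested.

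Among the laminin alpha chains Lama1 fell, and Lama4 and then Lama2 rose, across the groups. Lama1 (Entrez Gene 16772), the alpha chain of the embryonic basement membrane, read 6.67, 6.27 and 6.24 at day 0 and 5.14, 5.16 and 5.13 at day 5. It read 5.26, 5.33 and 5.25 in GFP-, 5.62, 5.40 and 5.05 in GFP+ and 3.67, 3.29 and 3.35 in the aorta. It was 2.39-fold lower at day 5 than at day 0 (limma adjusted p = 1.37e-05) and 3.78-fold lower in the aorta than in GFP+ cells (log2 change -1.92, SE 0.157, adjusted p = 9.12e-08). Lama4 (Entrez Gene 16775), a chain of vessels and muscle, appeared early. It read 3.83, 4.07 and 3.59 at day 0, 5.97, 6.72 and 6.65 at day 5, 6.91, 6.37 and 6.50 in GFP-, 8.20, 7.13 and 7.31 in GFP+ and 8.60, 8.19 and 8.48 in the aorta. Its 6.12-fold rise to day 5 (2.61, SE 0.262, adjusted p = 1.23e-06) was the greatest among the subunits in that comparison. Its rise of 0.88 from GFP+ cells to the aorta (adjusted p = 0.0152) rested on overlapping groups and did not pass without GFP+ sample 5 (0.0839), GFP+ sample 6 (0.065) or aortic sample 1 (0.0509).

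Lama2 (Entrez Gene 16773), the chain whose loss causes a congenital muscular dystrophy, came late. It stood at 3.63, 3.66 and 3.63 at day 5, 4.43, 4.85 and 5.15 in GFP-, 4.65, 5.23 and 5.51 in GFP+ and 7.19, 8.25 and 8.23 in the aorta. The aortic level was 6.76-fold above GFP+ cells (log2 change 2.76, SE 0.269, limma adjusted p = 6.8e-07), after rises from day 5 of 1.17 in GFP- (adjusted p = 0.00349) and 1.49 in GFP+ cells (adjusted p = 0.000361). Lama5 (Entrez Gene 16776), the broadly expressed chain of stem cell and vessel matrix, dipped by 1.04 at day 5 and had recovered in GFP- cells (0.90, adjusted p = 0.000378) but not in GFP+ cells (0.13, 95% interval -0.20 to 0.47). Lama5 read 7.32, 7.41 and 7.34 at day 0, 6.43, 6.27 and 6.24 at day 5, 7.64, 7.04 and 6.96 in GFP-, 6.65, 6.34 and 6.35 in GFP+ and 7.62, 7.62 and 7.63 in the aorta. Its aortic level was 2.26-fold above GFP+ cells (adjusted p = 1.88e-05). Lama3, an epithelial chain, fell by 0.98 from day 0 to day 5 (adjusted p = 3.16e-05) and was 0.56 higher in the aorta than in GFP+ cells (adjusted p = 0.00345).

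The laminin beta chains Lamb1 and Lamb2 went opposite ways in the aorta. Lamb1 (Entrez Gene 16777) read 7.83, 8.0 and 8.0 at day 0, 7.65, 7.63 and 7.67 at day 5, 9.56, 9.23 and 9.12 in GFP-, 9.61, 9.06 and 9.05 in GFP+ and 4.96, 5.89 and 5.64 in the aorta. Lamb2 (Entrez Gene 16779), the beta chain of mature muscle and arterial basement membranes, read 5.06, 4.97 and 4.58 at day 0, 5.61, 5.64 and 5.74 at day 5, 7.09, 7.09 and 7.18 in GFP-, 7.20, 7.44 and 7.68 in GFP+ and 9.62, 9.52 and 9.42 in the aorta. No aortic sample overlapped any cultured sample in either gene. Against GFP+ cells Lamb1 was 13.4-fold lower in the aorta (log2 change -3.74, SE 0.207, limma adjusted p = 1.06e-09) and Lamb2 was 4.22-fold higher (2.08, SE 0.143, adjusted p = 1.29e-08). From day 5 to GFP+ cells both had risen, Lamb1 3-fold (adjusted p = 1.61e-05) and Lamb2 3.43-fold (adjusted p = 1e-07). Lamb3 passed in none of the 5 comparisons, with adjusted p from 0.184 upwards by limma (0 at an unadjusted p under 0.05).

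Of the gamma chains, Lamc1 (Entrez Gene 226519), the chain of most laminins, dipped by 0.83 at day 5 (limma adjusted p = 0.000142) and read 9.30, 9.14 and 9.09 in GFP-, 9.96, 9.50 and 9.46 in GFP+ and 8.66, 8.67 and 8.61 in the aorta. It rose 4.15-fold from day 5 to GFP+ cells (2.05, SE 0.132, adjusted p = 9.43e-09) and was 1.99-fold lower in the aorta (adjusted p = 1.81e-05). Lamc3, a chain of few tissues, lay between 3.12 and 3.78 in all cultured samples and read 5.29, 5.78 and 5.27 in the aorta (4.04-fold, adjusted p = 1.59e-07).

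**Figure D3:**
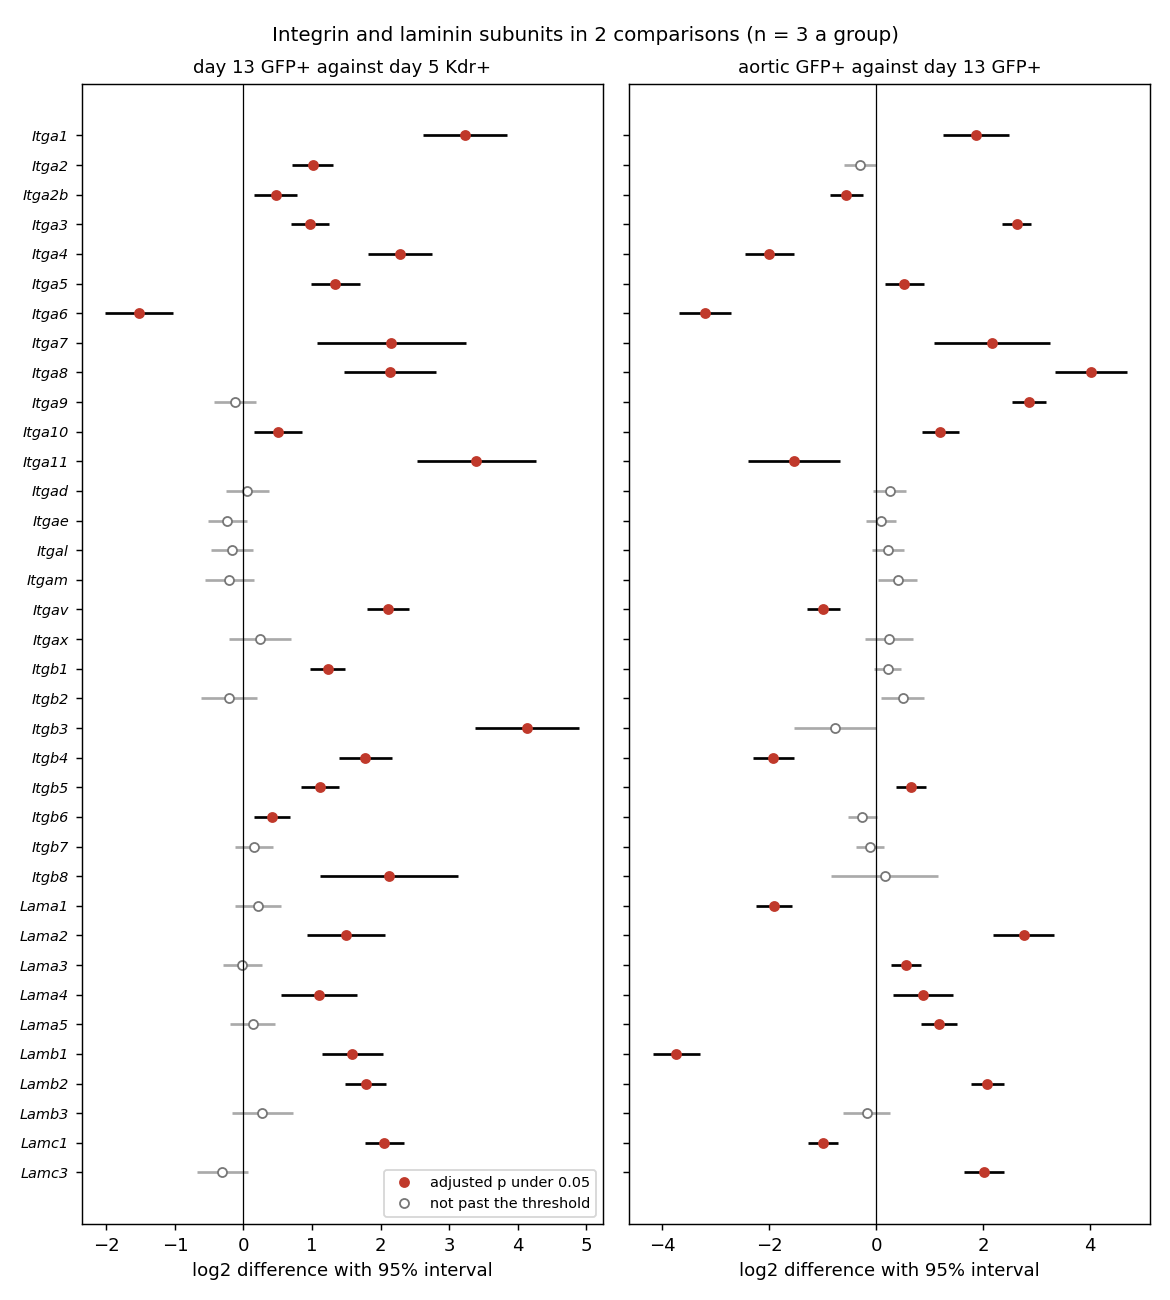
Log2 difference (horizontal axis) of 36 subunits (vertical axis) for day 13 GFP+ against day 5 Kdr+ cells on the left and aortic against day 13 GFP+ cells on the right, with 95% limma intervals over 3 samples a group; filled points passed the adjusted threshold. On the left 22 filled points lie right of 0 and 1, Itga6, left of it, and on the right 14 lie right and 9 left of 0, with Itga8 and Lamb1 at the ends.

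Cells with and without reporter signal at day 13 were set against each other. Those higher in GFP+ cells included the alpha chains Itga8 (2.38-fold, limma adjusted p = 0.0335), Itga2 (1.62-fold, 0.00823) and Itgav (1.48-fold, 0.0362), and the beta chains Itgb5 (2.14-fold, 0.000151) and Itgb4 (1.64-fold, 0.0346). Lower were Itga6 (-0.90, SE 0.231, adjusted p = 0.0372) and Lama5 (-0.77, SE 0.156, adjusted p = 0.00947). The 2 sorts of one sample number deviated together from their group means over all probe sets, at r = 0.597 for number 3, 0.403 for 5 and 0.397 for 6. GFP- 5 with GFP+ 6 gave 0.278, and GFP- 6 with GFP+ 5 gave 0.345. The values thus set number 3 apart and hardly told 5 from 6, and the labels do not name pairs. The block below takes equal numbers as pairs, and its extra calls rest on that. With the number as a block within the 6 day 13 samples, 14 of the 37 genes passed, 12 higher and 2 lower, where 8.45% of all probe sets passed (4.15% higher, 4.3% lower). Itga1 (0.97, adjusted p = 0.0775 without the block and 0.0084 with it), Itga11 (1.30, 0.0942 and 0.001), Itga4 (0.60, 0.164 and 0.0207), Itga5 (0.53, 0.105 and 0.0293), Itga9 (0.48, 0.0881 and 0.0377), Itgb8 (0.81, 0.501 and 0.0105) and Lama4 (0.95, 0.0518 and 0.00588) were called with the block alone. Each of these 7 was higher in GFP+ cells in all 3 pairs. Itgav lost its call (adjusted p = 0.0683). With the number as a fixed block over all 12 cultured samples, Itga8 (adjusted p = 0.0529) and Itgb4 (0.0563) lost theirs, and Itga11 (0.0257) gained one. That block also takes equal numbers as pairs across days, where they did not deviate together (r = -0.091 to 0.079).

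The pairs show these differences one by one. Itga11 was higher in GFP+ cells by 1.48, 1.30 and 1.13 in the pairs numbered 3, 5 and 6, and Itgb5 by 1.23, 0.99 and 1.07. Itga8 differed by 1.77, 1.20 and 0.78, and Itgav by 1.0, 0.29 and 0.39, so that the pair numbered 3 gave the widest gap in both. Itga6 was lower by 0.89, 0.82 and 0.99 in GFP+ cells, nearly the same gap in every pair, although its level differed between the pairs. Lama5 was lower by 0.99, 0.70 and 0.61.

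**Figure D4:**
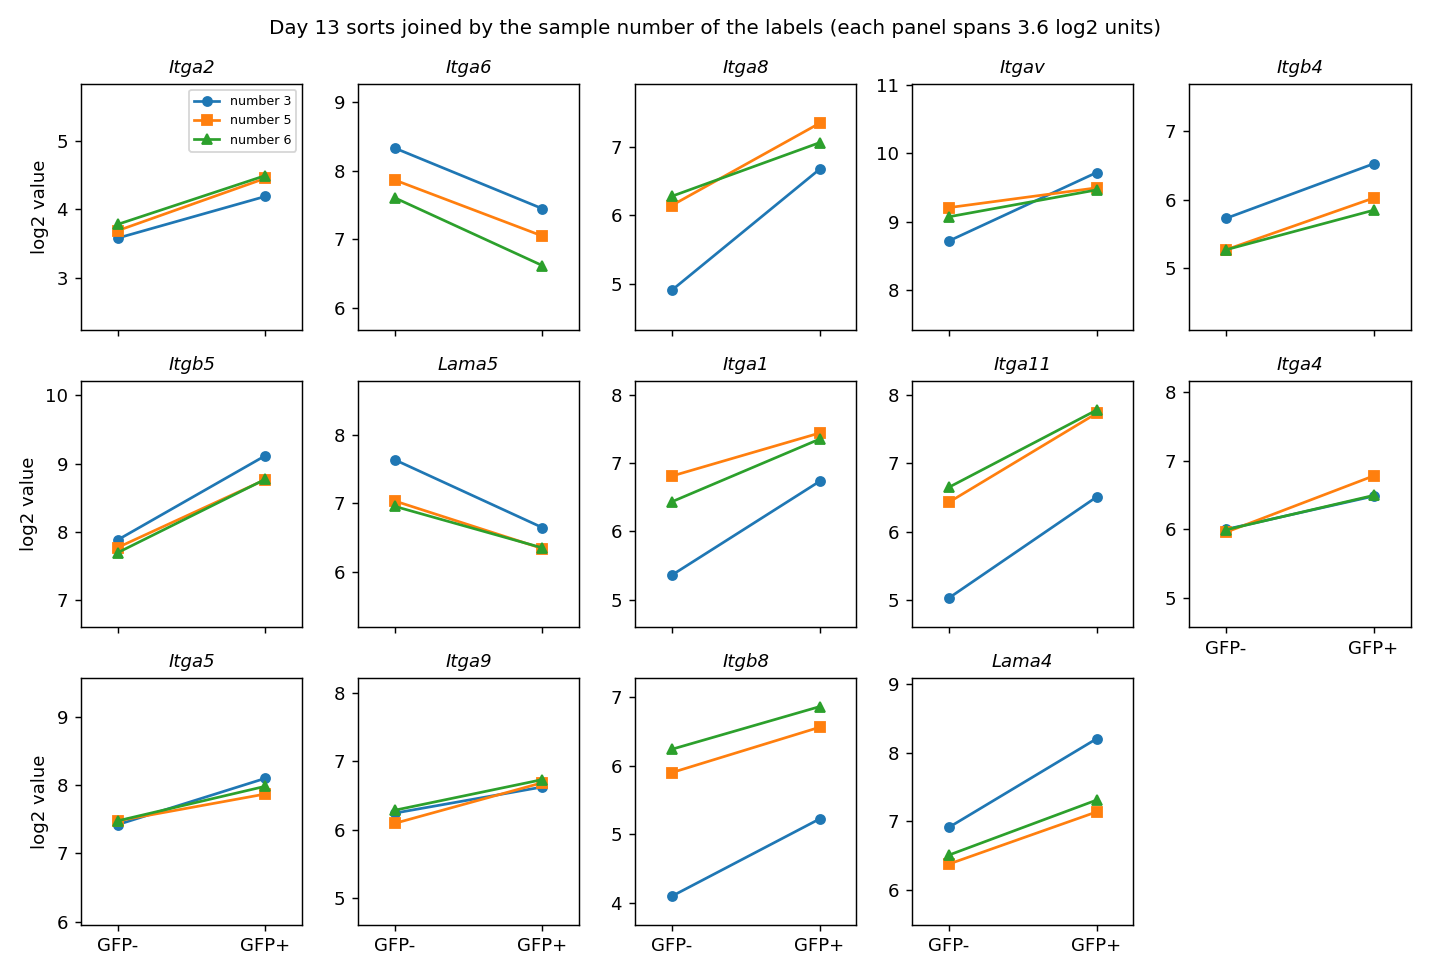
Log2 values (vertical axes, each spanning the same 3.6 units) of GFP- and GFP+ samples of day 13, joined by sample number, for 7 of the subunits called between the sorts and the 7 called with the number as a block alone. All lines of Itga6 and Lama5 slope down and those of the other 12 genes slope up, while pair 3 runs below the others in Itga1, Itga11 and Itgb8 and above them in Lama4.

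Without the block several of these calls hung on single samples. Itga6 did not pass without GFP- sample 3 or 5 or GFP+ sample 5 or 6 (limma adjusted p 0.084 to 0.187). Itga8 lost its call without GFP- sample 3 (0.82, adjusted p = 0.101), GFP+ sample 5 (0.135) or GFP+ sample 6 (0.105), Itgb4 without GFP- sample 5 or 6 or GFP+ sample 3 or 5 (0.0645 to 0.136), and Lama5 without GFP+ sample 6 (0.0503). Itgav ended without GFP- sample 3 or 6 or any GFP+ sample (0.066 to 0.128). Gained were Itga1 without GFP- sample 5 or GFP+ sample 3 (0.0247 and 0.0397), Itga11 without GFP+ sample 3 (1.72, 0.0231) and Lama4 without GFP- sample 3 or GFP+ sample 5 (0.044 and 0.0354). The count of 8 was 5 without GFP+ sample 5 (background 3.14%), 4 without GFP+ sample 6 (2.59%), 3 when the 2 sorts were fitted alone (1.82%) and 17 with array weights (11.7%). Without both samples numbered 3, Itga8 (0.99, adjusted p = 0.0551) and Itgav (0.34, 0.296) lost their calls, and Itga1 (0.0498) and Itga11 (0.0388) gained one.

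Markers of other cells moved with the sorts. Among all probe sets 2.02% were higher and 2.52% lower in GFP+ than in GFP- cells. Of 12 epithelial markers 8 were lower in GFP+ than in GFP- cells, with a list mean of 3.98 to 4.41 against 5.39 to 5.59, and Cdh1 at 4.45 against 7.21. Of 14 extraembryonic endoderm markers 8 were lower (4.73 to 4.98 against 5.66 to 5.79), and of 12 endothelial markers 4 (4.0 to 4.09 against 4.61 to 4.81). Of 9 early mesoderm markers 3 were lower (4.2 to 4.63 against 5.04 to 5.45). Of 9 fibroblast markers 2 were higher (5.53 to 5.90 against 4.59 to 5.15). Among the 10 smooth muscle markers 2 were higher and 1 lower (6.9 to 7.17 against 6.51 to 6.78). Myocd of that list read 5.25, 5.81 and 5.54 in GFP+ and 6.95, 7.09 and 6.87 in GFP- cells. In GFP- cells 9 of the extraembryonic endoderm and 8 of the endothelial markers had risen from day 5, against 2 and 1 in GFP+ cells. Among all probe sets 12% rose to GFP- and 14.3% to GFP+ cells. The epithelial, endoderm, endothelial and early mesoderm markers called between the sorts were lower alongside Itga6 and Lama5. Itgb4, the hemidesmosome partner of Itga6, went the other way and was higher in GFP+ cells (0.71, limma adjusted p = 0.0346). The part of all these sets in the differences between the sorts was not tested. From day 0 to day 5, 8 of the 12 epithelial markers fell (13.9% of all probe sets) beside Itga3, Itgb4, Lama1, Lama3 and Lama5. The list means went from 6.08 to 6.34 down to 4.65 to 4.75. The simple-epithelium keratins Krt8 and Krt18 rose, from 5.26 to 8.30 and from 5.68 to 8.66. The part of the epithelial markers was not tested either. From day 5 to GFP+ cells all 10 smooth muscle markers rose, 4 of 9 fibroblast markers rose and 1 fell (list means 4.2 to 4.32 at day 5), and 3 of 11 skeletal and cardiac muscle markers rose (4.15 to 4.24 at day 5, 4.88 to 5.29 in GFP+ cells). To GFP- cells 3 of those 11 rose as well (4.86 to 5.31). Among all probe sets 14.3% rose and 16.9% fell from day 5 to GFP+ cells, and 12% and 13.9% to GFP- cells. Tnnt2, cardiac troponin T, read 5.97 at day 5 and 9.43 in GFP+ cells. Of 9 early mesoderm markers 8 fell. The part of these sets in the day 13 rises of the subunits was not tested.

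Beside the aortic results, 5 of 9 fibroblast markers rose against day 13 GFP+ cells and 1 fell. Among all probe sets 17.7% rose and 19.5% fell. The list means were 7.37 to 8.26 in the aorta and 5.53 to 5.90 in GFP+ cells. Dpt, a matrix gene of adventitial fibroblasts, read 9.63 against 3.34. Of 12 endothelial markers 7 rose (5.11 to 5.40 against 4.0 to 4.09), with Pecam1 at 7.99 against 4.24. Sox10, which marks Schwann cells, was 3.71 in the aorta, under the array median. Of 10 smooth muscle markers 9 rose. The part of fibroblast and endothelial RNA in the aortic levels of Lama2, Lama4, Itga1 and the other subunits was not tested.

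Partners were then read together, because a subunit reaches the surface only in its pair and a laminin only as a trimer. Of 24 known integrin pairs, both chains rose in 15 from day 5 to GFP+ cells and in 10 to GFP- cells, in 3 from day 0 to day 5, and in 1 (Itgav with Itgb5) between the sorts. Since 12 of the 24 pairs hold Itgb1, these counts are not independent. Both day 13 counts include Itgav with Itgb6 and Itga2b with Itgb3, and that of GFP+ cells Itga10 with Itgb1. The rises of Itgb6, Itga2b and Itga10 in them were lost without single samples, as given above. Chains were called in opposite directions in 5 pairs from day 0 to day 5. They were so in 2 pairs from day 5 to GFP+ cells, 1 to GFP- cells and 1 between the sorts. In the aortic comparison 0 of 24 pairs rose together, while 1 pair, Itga6 with Itgb4, fell in both chains. Itgb1 did not pass there without cyclic loess scaling, so the aortic rises of Itga1, Itga3, Itga7, Itga8 and Itga9 were not matched by a call of their partner. Itgav and Itgb5 moved apart, by -0.99 and 0.64.

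Of 14 known laminin trimers, all 3 chains rose in 4 from day 5 to GFP+ cells: Lama2 or Lama4 with either Lamb1 or Lamb2 and with Lamc1. All 3 rose in 4 to GFP- cells as well, here Lama2 or Lama5 with either beta chain and Lamc1. In the aortic comparison all 3 chains fell in 1 trimer, Lama1 with Lamb1 and Lamc1. All 3 rose in 2 trimers, Lama4 or Lama5 with Lamb2 and Lamc3. In 11 of the 14 trimers chains were called in opposite directions there, and in 9 of those 11 the falling chains included Lamc1.

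Inside the cell, integrin tails are bound by activators, inhibitors and adaptors. Of 28 listed 15 rose and 1 fell from day 5 to GFP+ cells (median log2 change 0.40). Among all probe sets 14.3% rose and 16.9% fell there. To GFP- cells 9 rose and 1 fell (12% and 13.9% of all probe sets). From day 0 to day 5, 11 rose and 5 fell (14.9% and 13.9%). Between the sorts 2 rose (2.02%), and in the aorta 11 rose and 7 fell (17.7% and 19.5%). Tns1, a tensin that ties integrin tails to actin, rose 10.7-fold to GFP+ cells, and Parva, a parvin of the ILK complex, 7.24-fold, whereas its relative Parvb fell 2.84-fold. Between the sorts Tns1 and Tns3 were higher in GFP+ cells, by 0.95 and 0.94. The adaptor Lims2 was 28.7-fold higher in the aorta than in GFP+ cells (limma adjusted p = 1.98e-12) and Tln2, a talin, 4.37-fold lower. From day 0 to day 5 the integrin-linked kinase gene Ilk rose 3.66-fold.

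Basement membrane partners of laminin went both ways to day 5, and most that changed afterwards in culture rose. Of 24 listed, 9 rose and 7 fell from day 0 to day 5 (14.9% and 13.9% of all probe sets). From day 5 to GFP+ cells 18 rose and 1 fell (14.3% and 16.9%). To GFP- cells 13 rose and 3 fell (12% and 13.9%). Between the sorts 2 rose and 1 fell (2.02% and 2.52%). Nid1, nidogen, which links laminin Lamc1 to collagen type IV, fell 10.3-fold to day 5 (limma adjusted p = 1.13e-08) and rose 18.7-fold from there to GFP+ cells (adjusted p = 1.17e-09). Npnt, nephronectin and a ligand of the pair of Itga8 and Itgb1, read 3.93 at day 5, 6.58 in GFP+ and 10.45 in aortic cells, 14.6-fold up in the last step. In the aorta 12 rose and 10 fell (17.7% and 19.5% of all probe sets), among them Smoc1 at 25-fold up and Nid2 at 13.5-fold down.

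Of 10 genes of other laminin receptors and of proteins associated with them, 6 rose and 1 fell in the aorta against GFP+ cells, and 3 did not pass. Among all probe sets 17.7% rose and 19.5% fell there. Dag1, dystroglycan, read 9.12, 8.44 and 8.40 in GFP+ and 9.18, 9.08 and 9.04 in aortic cells, with overlapping groups. Those that rose included the sarcoglycans Sgcd (28.2-fold) and Sgca (20.9-fold), membrane proteins of the dystrophin complex of muscle, and Bcam (14.4-fold), a receptor for Lama5. The means of Sgcd and Sgca in GFP+ cells, 3.95 and 4.04, were under the array median. Bcam was also 1.06 lower on the log2 scale in GFP+ than in GFP- cells (limma adjusted p = 0.000535), where Lama5 was lower too. From day 5, 5 of 10 rose and 2 fell to GFP+ cells (14.3% and 16.9% of all probe sets). To GFP- cells 6 rose and 1 fell (12% and 13.9%), and from day 0 to day 5, 2 rose (14.9%). Between the sorts 2 were higher and 1 lower (2.02% and 2.52%).

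Among the 4 partner lists, integrin ligands outside the basement membrane had the largest median change from day 5 to day 13 in both sorts. Of 20 listed, 15 rose from day 5 to GFP+ cells (median log2 change 3.04), and 14 rose to GFP- cells. Among all probe sets 14.3% and 12% rose. From day 0 to day 5, 10 had fallen and 3 risen (13.9% and 14.9%). Tnc, tenascin C and a ligand of Itga8 and Itga9, rose 55.1-fold and Thbs1, thrombospondin, 79.4-fold to GFP+ cells, the latter from a day 5 mean of 3.79 under the array median. Spp1, osteopontin and a ligand of Itgav with Itgb3, fell 58.2-fold from day 0 to day 5 and was 3.51-fold higher in GFP+ than in GFP- cells and 12.2-fold lower in the aorta than in GFP+ cells (limma adjusted p = 5.72e-08). Between the sorts 6 of the 20 were higher in GFP+ cells (2.02% of all probe sets). In the aorta 8 rose and 8 fell (17.7% and 19.5%).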

How the data were processed

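Total RNA of 15 samples was hybridised to Affymetrix Mouse Gene 2.0 ST arrays. Per the submitters' processing notes the authors normalized the arrays with RMA (affy 1.36.1, R 2.15.1), which corrects background and quantile-normalizes across arrays. The deposited log2 values were used as given, and their log2 scale was read from their range. Entrez IDs gave 23740 of 25206 probe sets a RefSeq symbol, and 1466 had none. Members and gene lists were chosen with earlier results of these data known.

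limma 3.58.1 (R 4.3.3) fitted 1 mean per group over all 15 samples (10 residual degrees of freedom), with moderated variances and Benjamini-Hochberg adjustment over all probe sets at 0.05, in 5 comparisons. Folds are 2 to the power of a log2 difference, and arrays compress them. All members are in the counts, and 1 of them is not reported here by name. Named subunits were the other members, and list genes were taken from the up to 4 called members with the largest change per list and comparison. Dag1 was named outside that rule. Marker genes were named with their list, some after their values were seen. The script was tested on simulated data. The number of arrays, 3 a group, limits precision.

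Same-numbered day 13 sorts deviated together (r = 0.397 to 0.597 across genes, against -0.5 to 0.345 for unequal numbers, with 0.278 and 0.345 for 5 against 6). Equal numbers in the other groups did not (-0.091 to 0.079), so the paired reading of the sorts used a block within the day 13 samples. That block fit was chosen after seeing the data. Blocks over all cultured samples and over all samples were run as alternatives, although equal numbers did not deviate together between the other groups. Other alternatives were other scalings, array weights, other variance settings, a level filter, blocks and leaving out samples. No batch or scan information was used here.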

Additional observations from a re-analysis of the deposited data

How the results depend on the processing

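No called difference of a subunit changed direction under any alternative run. The count of subunits called between the day 13 sorts, 8 in the fit over all samples, depended on the setting: it was 3 when the 2 sorts were fitted alone, 17 with array weights and 14 with the replicate block within the day 13 sorts, where 1.82%, 11.7% and 8.45% of all probe sets passed. Leaving out 1 sample at a time gave 4 to 8, where 2.59% to 4.41% of all probe sets passed. In the other comparisons the counts stayed within 1.5 times of those reported, at 15 to 21 from day 0 to day 5, 18 to 24 for GFP- and 20 to 24 for GFP+ cells against day 5, and 21 to 27 for the aorta over the settings other than leaving out 1 sample. The shares of all probe sets that passed were 28.2% to 48.7%, 25.7% to 49.4%, 30.6% to 57.2% and 30.3% to 57.1% in that order. The upper ends came from the level filter, which kept 12603 probe sets. The replicate block as a random effect over all samples gave 18, 22, 24, 10 and 24 calls in the order of the comparisons. There 29.9%, 27%, 32.1%, 5.04% and 37.2% of all probe sets passed, with an estimated block correlation of 0.0626. The cause of these shifts was not tested. Scaling moved single sample medians by at most 0.106 (median centring), 0.107 (repeated quantile normalization) and 0.151 (cyclic loess). Low genes close to background, and 3 samples a group, limit what can be called.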

Other observations

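Several subunit genes are direct neighbours on their chromosome in the RefSeq order, with 0 genes between them, and their values can be read side by side. Itga2 and Itga1 both rose from day 5 to GFP+ cells, by 1.01 and 3.23, whereas in the aorta Itga1 rose by 1.87 and Itga2 differed by -0.30 (limma adjusted p = 0.101). Itgam, Itgax and Itgad, a run of leukocyte chains, were below the array median in every group.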
